A study of Mus musculus with 6 samples.

Results

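The host gene of miR-22, *Mir22hg*, and 9 protein-coding genes close to it on mouse chromosome 11 (*Tlcd2*, *Prpf8*, *Rilp* and *Scarf1* on one side, *Wdr81*, *Serpinf1*, *Smyd4*, *Rpa1* and *Rtn4rl1* on the other) were examined in brown adipose tissue (BAT) lacking miR-22. BAT of 3 wild-type (WT) mice and 3 miR-22 knockout (KO) mice, all 8 weeks old, was compared on Agilent mouse gene expression arrays with a single dye and 1 mouse per array. The KO is global, so that miR-22 was missing from every cell type of these mice, and the line came from the Jackson Laboratory. Mice of the study were male, and the controls were littermates of the KO mice. Which mice shared a litter, the genetic background, and the extent of the deleted DNA in the global KO are not given in the sources used here. The question was how the genes that share the locus with the deleted microRNA were expressed when it was gone.

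The 10 genes were chosen by name with the WT and KO signals of these arrays already known. Their differences between the groups are therefore given as a description, without a p-value, and only genes picked by position are tested further on. The 10 genes are among 23462 genes that could be matched to the array through RefSeq accessions. They were covered by 15 of its 56605 probes, and 13 of those probes, on 9 genes, could be fitted. The only probe of *Rpa1* and the dimmer of the pair of probes of *Smyd4* could not, for reasons given beside their values.

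A microRNA is cut from a longer transcript. The hairpin is excised from the primary transcript in the nucleus, trimmed in the cytoplasm, and 1 of its arms is loaded onto an Argonaute protein, which it guides to messenger RNAs through its seed, the bases from position 2 to 8. miR-22 lies within a noncoding host transcript, *Mir22hg*, and is abundant in muscle, heart and adipose tissue. The 3p arm is the one usually referred to as miR-22. The neighboring genes encode proteins of unrelated function, among them a spliceosome core component, a subunit of the DNA-binding complex of replication, and proteins of endosomes and lysosomes.

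The sequences at the center of the locus are shown first because miR-22 is what the KO mice lack. Both mature arms are given from RefSeq on GRCm38.p6, 5′ to 3′, with the seed in capitals, followed by the hairpin with the mature arms in capitals.
mmu-miR-22-5p: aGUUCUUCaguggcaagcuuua
mmu-miR-22-3p: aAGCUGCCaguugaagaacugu
Mir22 hairpin: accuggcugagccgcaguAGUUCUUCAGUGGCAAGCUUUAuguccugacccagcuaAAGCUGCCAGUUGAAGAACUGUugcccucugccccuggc
The hairpin of 95 bases lies at chr11:75463716-75463810 on the plus strand, inside *Mir22hg*. The 5p arm lies at chr11:75463734-75463755 and the 3p arm at chr11:75463772-75463793. The next gene downstream on the same strand is *Tlcd2*. The array measured the host transcript with a single probe whose position within the transcript is not given in the files. That probe therefore cannot tell whether the deleted bases are present, and it checks neither the genotype nor the level of mature miR-22.

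All values below are on a log2 scale, on which the scanner's background-subtracted signal was set against the spot at percentile 75 of the same array, so that 0 is the brightness of that spot and 1 unit is a doubling. Between 55.8 and 66.5% of the spots were well above background on each array, and none was saturated. The scanner software marked 4.87 to 6.12% of the spots as uneven or outlying on 4 arrays, 17.1% on WT mouse 3 and 15.1% on KO mouse 1, and such spots were left out of the fit. WT mice 1 and 2 lay in row 1 of the slide, and WT mouse 3 and all KO mice in row 2. In bulk tissue, fewer cells of a type and less RNA per cell cannot be told apart. All 8 genes of the brown adipocyte list, led by *Ucp1*, were well above background on all 6 arrays, with a mean log2 signal of 2.86 to 3.68, so the labelled tissue bore its defining markers. Skeletal muscle genes varied most between mice, with mean log2 signals of 2.92, 2.10 and -5.02 in WT mice 1 to 3 and 0.54, 3.74 and 1.98 in KO mice 1 to 3. Only 5 of the 10 muscle genes were well above background on all 6 arrays, and none was below it on all 6. The part of muscle content in the values below was not tested.

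Of the 13 member probes fitted, 8 were higher and 5 lower in KO mice on average. In 5 of them (3 of *Tlcd2*, and those of *Mir22hg* and *Rtn4rl1*) every KO mouse lay above every WT mouse, a pattern shown by 13.8% of all 31238 probes fitted. In 3 of them (*Wdr81*, *Rilp* and 1 of *Serpinf1*) every KO mouse lay below every WT mouse, as in 13.8% of all probes. Past limma's unadjusted threshold of 0.05 lay 4 member probes that were higher, against 9.7% of all probes, and 2 that were lower, against 6.74%. After Benjamini-Hochberg adjustment over all probes, 2 member probes, both of *Tlcd2*, remained higher, against 0.0864% of all probes. Since the list was drawn up with these differences in view, nothing is read from those counts. The median KO minus WT difference was 0.33 over the 13 probes and 0.02 over all probes. That median counts *Tlcd2* and *Serpinf1* with 3 probes each. By the brightest probe of a gene, *Rtn4rl1* (1.32), *Mir22hg* (0.75), *Tlcd2* (0.33) and *Smyd4* (0.02) were higher in KO mice on average. *Wdr81* (-0.65), *Rilp* (-0.52), *Scarf1* (-0.46), *Prpf8* (-0.21) and *Serpinf1* (-0.18) were lower, and the median over all genes fitted was -0.03.

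**Figure D1:**
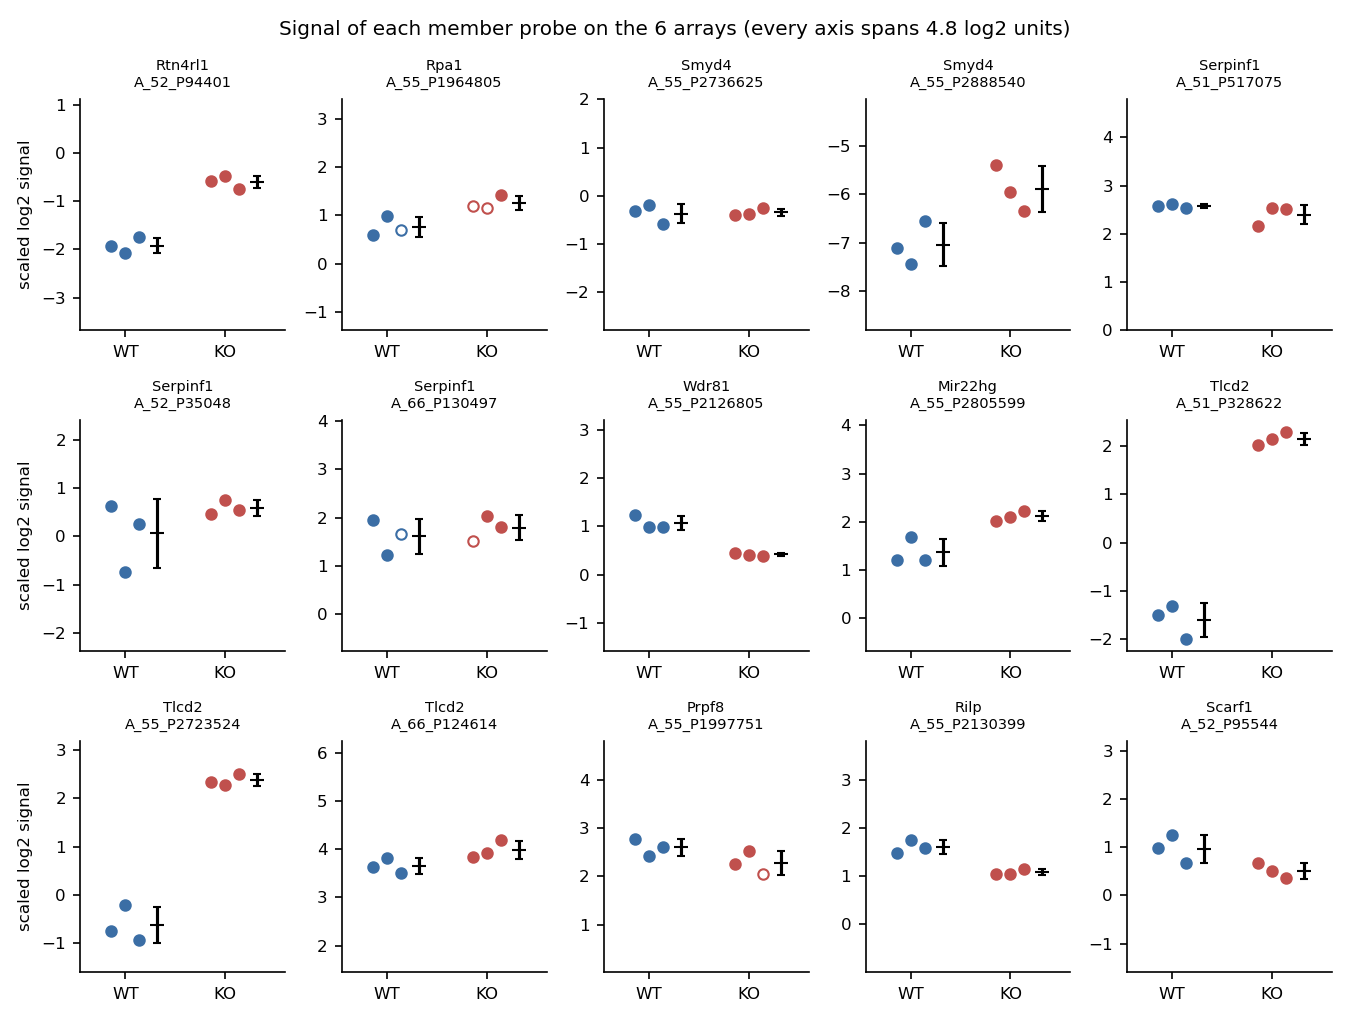
Each panel is 1 of the 15 probes, in the order of the genes along chromosome 11, and each point is 1 mouse (WT blue, KO red, mice 1 to 3 from left to right) at its scaled log2 signal, with vertical axes of equal span but different position. Open circles are spots marked by the scanner software, and black bars are the mean ± SD over all 3 mice of a group, marked spots included. The WT and KO mice are farthest apart in 2 probes of *Tlcd2*, where all KO values lie between 2.03 and 2.51 and all WT values between -2.0 and -0.21.

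*Mir22hg* RNA was higher in BAT of KO mice. Its scaled log2 signals were 1.20, 1.69 and 1.22 in WT mice and 2.02, 2.11 and 2.23 in KO mice. The KO mice lay close together and all above the WT mice, the smallest gap being 0.33 to WT mouse 2. WT mice had a mean of 1.37 ± 0.28 and KO mice one of 2.12 ± 0.11 (SD, n = 3 each), a difference of 0.75 with a standard error (SE) of 0.19, or 1.68-fold. Each SE in the text is that of the limma fit, which draws in part on the spread of all probes. Against WT mouse 3 alone, which shared the slide row of the KO mice, the difference was 0.90. That mouse had the lowest muscle signal (-5.02) and the most marked spots (17.1%). Slide row and muscle content cannot be told apart in such a comparison.

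The 250 bases before the start of *Mir22hg* are shown because the host transcript was measured well above background in both groups, with the CCAAT box and the TGACG core of the cAMP response element in capitals on either strand (ATTGG is CCAAT on the minus strand). The stretch is chr11:75461289-75461538, GRCm38.p6, plus strand.
Mir22hg upstream: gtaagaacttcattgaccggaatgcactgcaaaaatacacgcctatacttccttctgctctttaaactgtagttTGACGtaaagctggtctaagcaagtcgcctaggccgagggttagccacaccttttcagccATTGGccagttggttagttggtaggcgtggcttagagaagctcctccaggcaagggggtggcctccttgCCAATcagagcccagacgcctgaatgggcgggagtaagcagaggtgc
Counted in bases from the gene start, CCAAT lies at -47 on the strand of the gene and at -116 on the opposite strand, and TGACG lies at -176 on the strand of the gene.

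*Tlcd2* had the widest difference of the 10 genes, and its probes gave unlike values. *Tlcd2* encodes a membrane protein with a TLC domain that has been linked to the phospholipid composition of the plasma membrane. With probe A_51_P328622 the log2 signals were -1.5, -1.32 and -2.0 in WT mice and 2.03, 2.15 and 2.29 in KO mice, a difference of 3.76 (SE 0.21) or 13.6-fold. With probe A_55_P2723524 they were -0.76, -0.21 and -0.93 in WT mice and 2.34, 2.28 and 2.51 in KO mice, a difference of 3.01 (SE 0.22) or 8.05-fold. On both probes the KO mice were tightly grouped and far above the WT mice. By size of increase among all 31238 probes, these probes ranked at positions 6 and 15.

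The remaining probe of *Tlcd2*, A_66_P124614, was bright in both groups and differed little between them. Its log2 signals were 3.64, 3.82 and 3.50 in WT mice and 3.84, 3.92 and 4.19 in KO mice, a difference of 0.33 (SE 0.17) or 1.26-fold. The groups did not overlap, but the gap between the lowest KO and the highest WT mouse was only 0.02. The difference was 0.57 after quantile normalization and 0.59 in the authors' processed values. The disagreement was present within each array, where scaling between arrays cancels. The log2 ratio of A_51_P328622 to A_66_P124614 averaged -5.26 ± 0.21 for WT and -1.83 ± 0.07 for KO (SD, n = 3 each), so the pair changed unequally by 3.43. The ratio of A_55_P2723524 to the same bright probe averaged -4.29 ± 0.22 for WT and -1.61 ± 0.09 for KO (SD, n = 3 each), an unequal change of 2.68. All 3 probes carry the same RefSeq accession in the array annotation, and where they lie in the transcript is not given in the files. The probes of *Tlcd2* thus gave KO over WT ratios from 1.26-fold to 13.6-fold.

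The 250 bases before the start of *Tlcd2*, at chr11:75467800-75468049 on the plus strand of GRCm38.p6, are shown because this gene stood next to the deleted microRNA and had the widest difference. The CCAAT box is in capitals, and TGACG is not among its letters.
Tlcd2 upstream: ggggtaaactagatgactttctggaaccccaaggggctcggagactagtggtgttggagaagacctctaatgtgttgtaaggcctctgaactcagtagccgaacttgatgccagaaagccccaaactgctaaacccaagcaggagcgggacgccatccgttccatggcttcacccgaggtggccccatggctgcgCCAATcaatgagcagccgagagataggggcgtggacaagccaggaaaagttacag
CCAAT lies at -55 from the gene start on the strand of the gene. RefSeq windows of 300 bases, from 250 before to 50 after the gene start, were at hand for 8 of the 10 genes. CCAAT occurred on either strand in 6 of these 8, and in 37.4% of all 32851 windows. TGACG occurred in 3 of 8 against 20.8% of all windows, and the E-box CACGTG in 3 of 8 against 7.15%. The full cAMP response element TGACGTCA, which contains TGACG, was in 0 of 8 against 1.79%, and the TATA box TATAAA in 0 of 8 against 13.6%. Among the 8 windows, those of the divergent neighbors *Rpa1* and *Smyd4* overlapped by 149 bases and share letters, so the windows are not independent. A match says only that the letters occur there.

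*Rtn4rl1*, the outermost gene on the *Wdr81* side, was higher in KO mice, and 3 of the 6 spots of its neighbor *Rpa1* had been marked by the scanner software. *Rtn4rl1* encodes a member of the Nogo receptor family of neuronal surface proteins. Its log2 signals were -1.94, -2.08 and -1.75 in WT mice and -0.59, -0.48 and -0.74 in KO mice. Every KO mouse lay at least 1.01 above every WT mouse, and the difference was 1.32 (SE 0.16), or 2.50-fold. Beside it, the nerve marker list of myelin genes had mean log2 signals of 1.13, 0.82 and 0.24 in WT mice and 0.16, 0.57 and 0.22 in KO mice. All 4 of its genes were above background on all 6 arrays, and the list was lower on average in KO mice by 0.41.

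*Rpa1*, the large subunit of the single-stranded DNA binding protein of replication and repair, was measured by 1 probe with marked spots on WT mouse 3 and KO mice 1 and 2. Only 1 unmarked value was left in the KO group, so that no fit was made. With the marked spots kept, the log2 signals were 0.60, 0.99 and 0.70 in WT mice and 1.19, 1.16 and 1.43 in KO mice. The groups then did not overlap and differed by 0.50, a value from 3 marked and 3 unmarked spots. The unmarked values were 0.60 and 0.99 in WT mice and 1.43 in the KO mouse.

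*Wdr81* and *Rilp* were lower in KO mice. *Wdr81*, the immediate neighbor of *Mir22hg* on the opposite strand, encodes a WD-repeat protein that regulates lipid kinase activity on endosomes. Its log2 signals were 1.23, 0.99 and 0.99 in WT mice and 0.46, 0.41 and 0.39 in KO mice. The KO values had an SD of only 0.04 (n = 3), and the difference was -0.65 (SE 0.15), or 0.638-fold. *Rilp* encodes the effector through which Rab7 couples late endosomes and lysosomes to the dynein motor. Its log2 signals were 1.49, 1.76 and 1.58 in WT mice and 1.05, 1.05 and 1.15 in KO mice, with a difference of -0.52 (SE 0.15), or 0.696-fold. Against WT mouse 3 alone, in the slide row of the KO mice, the differences of *Wdr81* and *Rilp* were -0.57 and -0.49. As for *Mir22hg*, slide row and muscle content cannot be told apart there.

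*Scarf1*, a scavenger receptor of endothelial cells, did not separate the groups with the scaling used here. Its log2 signals were 0.99, 1.25 and 0.67 in WT mice and 0.67, 0.51 and 0.36 in KO mice, a difference of -0.46 (SE 0.20) in which WT mouse 3 and KO mouse 1 met. Every KO mouse lay below every WT mouse with median scaling (-0.46) and normexp (-0.57). The groups overlapped after quantile normalization and in the authors' processed values (-0.41 in each). Within slide row 2 the difference was only -0.16, again against WT mouse 3 alone, the mouse lowest in muscle signal. The 4 endothelial markers were well above background on all 6 arrays, and their mean differed between KO and WT mice by 0.11.

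*Serpinf1*, *Smyd4* and *Prpf8* had differences that were small against their errors. *Serpinf1* encodes pigment epithelium-derived factor, a secreted serpin that adipose tissue releases. Its brightest probe, A_51_P517075, gave log2 signals of 2.58, 2.63 and 2.53 in WT mice and 2.17, 2.53 and 2.51 in KO mice, a difference of -0.18 (SE 0.16). That difference was -0.06 without KO mouse 1, and it was -0.03 after quantile normalization and -0.01 in the authors' processed values, where the groups overlapped. Its probe A_52_P35048 gave 0.64, -0.73 and 0.26 in WT mice and 0.46, 0.76 and 0.55 in KO mice, a difference of 0.53 (SE 0.34) that fell to 0.14 without WT mouse 2. Its remaining probe, A_66_P130497, differed by 0.33 (SE 0.31) with 2 unmarked mice in each group. Each of these 3 differences was below 2 of its standard errors.

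*Smyd4*, which encodes a SET and MYND domain protein, had log2 signals of -0.32, -0.19 and -0.59 in WT mice and -0.39, -0.38 and -0.26 in KO mice. The values of both groups interleaved, with a difference of 0.02 (SE 0.16) that was 0.24 with the slide row as a block and -0.09 without WT mouse 3. The other *Smyd4* probe was not well above background on any array. *Prpf8*, the large core protein of the spliceosome and the gene just beyond *Tlcd2*, had log2 signals of 2.77, 2.43 and 2.61 in WT mice and 2.25 and 2.53 in KO mice 1 and 2, with a marked spot at 2.05 in KO mouse 3. The difference without the marked spot was -0.21 (SE 0.20) and went to 0.00 after quantile normalization and to 0.01 in the authors' processed values. The groups of *Prpf8*, next to *Tlcd2*, thus overlapped.

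**Figure D2:**
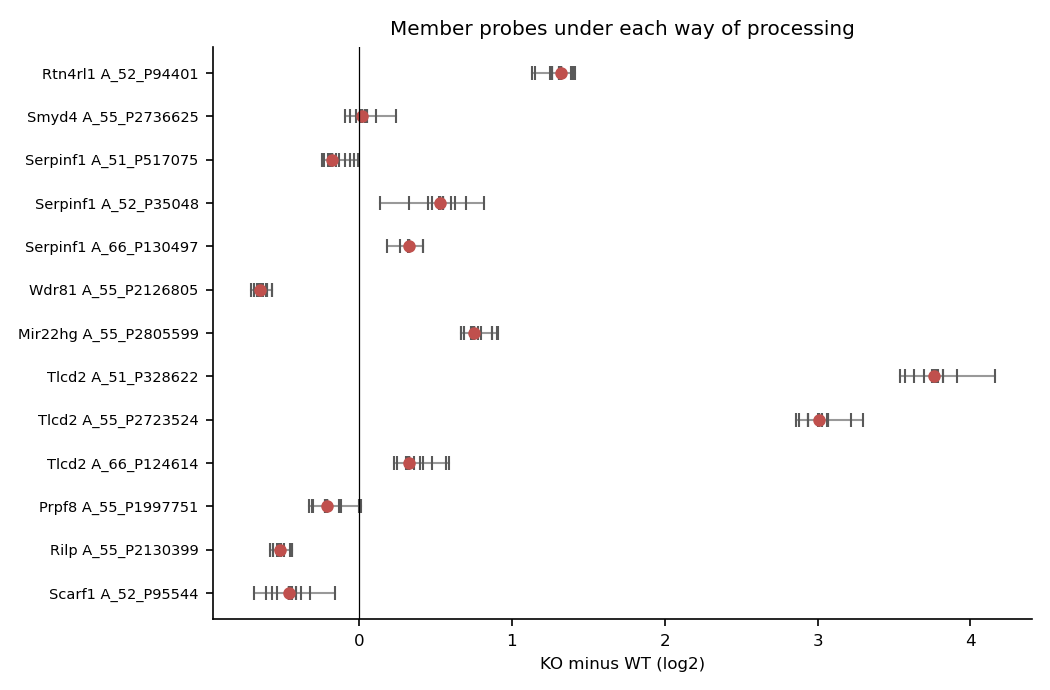
Each row is 1 of the 13 fitted probes, the horizontal axis is its KO minus WT log2 difference, the red point is the value in the text, and each tick is the value under another way of processing or with an array left out. The *Tlcd2* probes A_51_P328622 and A_55_P2723524 stay between 2.86 and 4.16, *Rtn4rl1* between 1.13 and 1.41, *Mir22hg* between 0.67 and 0.91, *Rilp* between -0.58 and -0.44, and *Wdr81* between -0.71 and -0.57.

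Genes further out on each side were picked by position alone and tested. The 20 genes nearest to *Mir22hg* with a matched probe were taken on either side and the members left out, which left 31 genes. Here and below, a step or a distance in genes counts only genes with a matched probe on the array. Of these, 24 could be fitted, 1 probe a gene, the brightest. At limma's unadjusted threshold of 0.05, 4 were higher in KO mice, or 16.7% against 9.23% of all 14711 genes fitted, and 2 were lower, or 8.33% against 7.39%. After Benjamini-Hochberg adjustment over all probes, limma called 0 of the 24. Their median difference was -0.03, the same as over all genes, and the range was -0.63 to 0.95. With the slide row as a block the counts were 2 higher (*Tsr1* and *Tlcd3a*) and 0 lower.

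The 6 flanking genes with the smallest p-values lay on both sides of *Mir22hg*. Of these, *Tsr1*, *Srr* and *Hic1* lay close together, at steps -12, -11 and -9 from it in gene order. *Smg6*, between *Srr* and *Hic1*, differed by -0.29 (SE 0.15). *Tsr1*, a factor for maturation of the small ribosomal subunit, had log2 signals of -0.26, -0.17 and -0.31 in WT mice and 0.51, 0.39 and 0.81 in KO mice. The difference was 0.82 (SE 0.17, limma adjusted p = 0.103), and its 3 probes were all higher in KO mice, by 0.69 to 0.95. *Hic1*, a transcriptional repressor, had 1.54, 1.73 and 1.58 in WT mice and 0.91, 0.85 and 1.18 in KO mice, a difference of -0.63 (SE 0.16, limma adjusted p = 0.141). *Slc43a2*, an amino acid transporter and the first gene beyond *Scarf1*, differed by 0.95 (SE 0.27, limma adjusted p = 0.167) with its brightest probe and by 0.20 with its other probe. *Tlcd3a*, a TLC domain gene like *Tlcd2* but 17 genes away from *Mir22hg*, was dim, above background on 4 arrays, and differed by 0.82 (SE 0.20, limma adjusted p = 0.136), a value that went to 0.06 with normexp background correction. *Ccdc92b* differed by 0.59 (limma adjusted p = 0.18), and its unadjusted call was lost with normexp (0.21), quantile normalization (0.38), the authors' values (0.38) and the slide row as a block (0.41). *Srr*, serine racemase, differed by -0.44 (limma adjusted p = 0.267), but its 4 probes ranged from -0.89 to 0.27. Its unadjusted call was lost without WT mouse 1 or 2 or KO mouse 1 or 2, and without WT mouse 3 and KO mouse 1 together. It was also lost with normexp (-0.4), without the filter on dim probes and with the slide row as a block (-0.31). With that block the unadjusted calls of *Hic1* (-0.6) and *Slc43a2* (0.72) were lost too. *Serpinf2*, which lies between *Serpinf1* and *Wdr81*, had its only probe below background on every array.

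**Figure D3:**
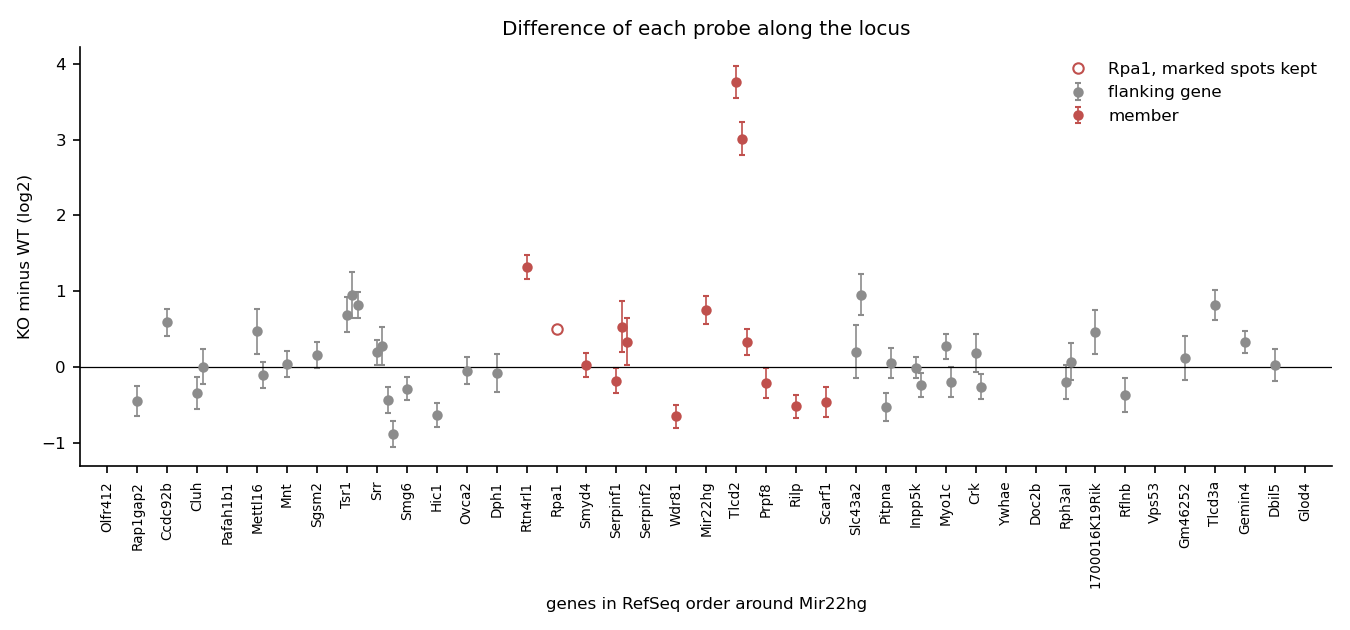
The KO minus WT log2 difference (vertical axis) is plotted against gene order along chromosome 11, in steps from *Mir22hg* at 0, with 1 point per fitted probe, error bars of 1 SE, the 10 genes in red and flanking genes in gray. The open circle is *Rpa1* with marked spots kept, and a gene without a point could not be fitted. The *Tlcd2* probes at 3.01 and 3.76 stand alone, while the fitted genes beside them lie mostly within 1 unit of 0.

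Over the rest of chromosome 11, 1222 of 1722 genes on the array were fitted. At limma's unadjusted threshold, 121 (9.9%) were higher in KO mice, against 9.23% of all genes, and 111 (9.08%) lower, against 7.39%. The median difference of the 1222 genes was -0.03. With all probes of the chromosome counted, members included, 5 of 1745 passed the adjusted threshold. Over all 31238 probes, 27 higher and 7 lower passed it. The 5 were named after their values were seen. Both *Tlcd2* probes were among them, which adds nothing here, since *Tlcd2* was listed with its values known. *Xaf1*, which encodes an inhibitor of XIAP and is induced by interferon, lies 78 genes from *Mir22hg* on the *Wdr81* side. Its probe A_55_P1966838 read -4.55, -4.58 and -4.51 in WT mice and 0.96, 1.16 and 1.0 in KO mice, a difference of 5.59 (SE 0.14, limma adjusted p = 4.36e-05). The other probe of *Xaf1* differed by -0.57 (limma adjusted p = 0.332), so that this gene, like *Tlcd2*, had probes that disagreed. *Epop*, 371 genes away on the *Tlcd2* side, differed by 1.83 (SE 0.20, limma adjusted p = 0.0346), and 1 probe of *Arhgap27*, 608 genes away, by 1.72 (SE 0.15, limma adjusted p = 0.0176), while other probes of *Arhgap27* differed by 0.18 and 0.09.

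**Figure D4:**
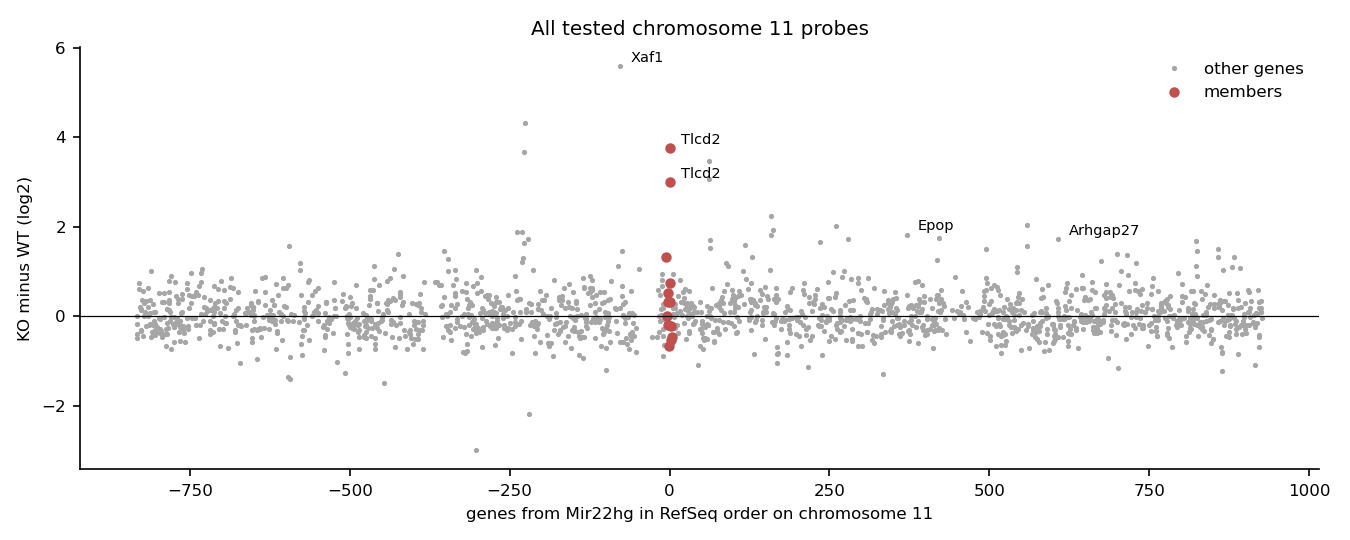
Every fitted probe of chromosome 11 is plotted by gene order in steps from *Mir22hg* (horizontal axis) and by its KO minus WT log2 difference (vertical axis), with the 10 genes in red and the probes past the adjusted threshold named. Among the named probes, *Xaf1* has the widest difference at 5.59 and the *Tlcd2* probes follow at 3.76 and 3.01. Unnamed probes with differences over 3, such as that of the muscle myosin *Myh13* at 4.32, did not pass that threshold.

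Across the 6 arrays, the genes whose signal ran most like that of *Mir22hg* among 9568 genes above background and unmarked on all of them were *Ttyh3* (Pearson's r 0.997), *Exoc3l4* (0.994), *Sct* (0.992), *Akap17b* (0.991) and *4930578M01Rik* (0.991). None lies on chromosome 11, and their KO minus WT differences were 0.31 to 0.67, all below the 0.75 of *Mir22hg*. Within the locus, the probes of *Tlcd2* correlated with *Mir22hg* at 0.914 to 0.958 and *Wdr81* at -0.938. These values are given as a description over 6 mice that share the group difference.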

How the data were processed

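The authors deposited, per the file headers, spot intensity values of Agilent Feature Extraction 11.5.1.1, background-subtracted and not scaled between arrays, and a table of log2 values for 27497 probes, whose processing is not given in the sources used here. For the member probes, differences in the authors' values lay close to those after quantile normalization (*Mir22hg* 0.87 and *Wdr81* -0.6 in each). These settings are therefore not counted as independent checks. Groups followed the sample labels. Each intensity was set against percentile 75 of the non-control spots on the same array, on a log2 scale. Spots marked as non-uniform or population outliers were left out. Probes well above background on at least 3 arrays with at least 2 unmarked values per group were fitted with lmFit and eBayes of limma 3.58.1 (R 4.3.3, data.table version 1.17.8), with p-values adjusted after Benjamini-Hochberg over 31238 probes. limma stood in for the SAM software that the methods name. Of the detected probes, 4413 were lost to marked spots. With 3 arrays per group, precision is given as the SE.

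Probes were matched through RefSeq accessions (33767 of 56605). The array was designed on mm9, and the tables are on GRCm38.p6, so gene order is used instead of gene coordinates. That order skips genes without a matched probe. The members and lists were chosen with earlier results of these data known. Flanking genes were picked by position alone, with the members left out, but that rule was also set with those results known. Named genes are all members, the 6 flanking genes with the smallest unadjusted p, the neighbors of *Mir22hg*, and the 5 genes most correlated with it. *Xaf1*, *Epop*, *Arhgap27* and *Myh13* fall outside that rule and were chosen after their values were seen. Brown adipocyte, adipocyte, muscle, erythroid, lymphocyte, macrophage, endothelial and nerve markers were averaged per array. The erythroid, lymphocyte, macrophage and adipocyte means ranged over 0.23, 1.09, 0.77 and 0.64 log2 units between arrays. The fit was tested on simulated data, with 200 of 25959 probes changed by 1.5 (log2), where limma recovered 97% unadjusted and 54% adjusted, and called 5.24 and 0.0311% of the others. Which mice shared a litter or cage is not given, so litter could not enter the fit. The p-values set the group difference against the spread between mice within a group, and do not account for litter or cage. Alternatives were quantile normalization, median scaling, normexp, the authors' values, marked spots kept, other filters, the methods' t-test, trend and robust eBayes, 1 probe a gene, the slide row as a block and leaving out each array.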

Additional observations from a re-analysis of the deposited data

How the results depend on the processing

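The differences of *Mir22hg*, *Tlcd2*, *Rtn4rl1*, *Wdr81* and *Rilp* kept their direction under every alternative run. Of 31238 probes, 3031 were higher and 2104 lower at limma's unadjusted threshold, and 27 and 7 after adjustment. The higher and lower counts were 2008 and 3020 after quantile normalization, 1666 and 2324 with normexp, and 1894 and 2957 of 27122 in the authors' values. Under these settings more probes were lower than higher in KO mice. With 1 probe a gene the counts were 1476 and 1297 of 14711, and with the slide row as a block 1689 and 565 of 27387. With the block, the group difference rests on WT mouse 3 alone on the WT side. Adjusted, the higher and lower counts were 42 and 50 in the authors' values and 7 and 0 with the block. Without a filter on dim probes they were 9 and 1 of 52192, and with a filter of all 6 arrays 171 and 63 of 25162. Trend and robust eBayes gave 210 and 139. The methods' t-test gave 2 and 0, and 2392 and 2371 unadjusted. Adjusted counts were 9 and 5 after quantile normalization, 40 and 25 with normexp, and 42 and 9 of 35651 with marked spots kept. Of the flanking genes (4 higher, 2 lower), 2 were higher with normexp and with the block, and 4 were lower after quantile normalization, in the authors' values and by the t-test, 1 with normexp and without the filter, and 0 with the block. Between 21 (block) and 28 (no filter) flanking genes were fitted. On the rest of chromosome 11 (121 higher, 111 lower of 1222), 70 were higher and 22 lower of 1095 with the block. Without the filter, 68 of 1636 were lower. With 1 probe a gene, 3 of 9 member probes had all KO mice above all WT mice instead of 5 of 13, as *Tlcd2* then counted once. By the brightest probe, 2035 of all 14711 genes had that pattern. Leaving out each array in turn gave 2155 to 2908 higher and 1240 to 1970 lower probes of 27176 to 30881 fitted. After adjustment these were 6 to 32 and 1 to 8. There were 4 higher and 1 to 2 lower flanking genes, and 88 to 104 higher and 49 to 110 lower genes of chromosome 11. Of 11 to 13 member probes fitted, 5 to 6 had all KO mice above all WT mice and 3 to 4 all below. Groups of 2 and 3 mice separate more easily than groups of 3. The share over all probes was not computed there, so nothing is read from those member counts. The count of 49 came without WT mouse 2. An alternative chosen after seeing the data left out WT mouse 3 and KO mouse 1 together, with marked spots kept. It gave 11 and 3 adjusted probes of 35651, 1 lower flanking gene of 27 and 56 lower genes of 1309 on chromosome 11. The causes were not tested. No paired analysis was possible because the mouse numbers of the labels are not shared between the groups. Signals not well above background set the limit for *Serpinf2* and the dim *Smyd4* probe, and marked spots for *Rpa1*.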
